A study of Mus musculus with 9 samples.

Results

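The Akr1c genes encode aldo-keto reductases, enzymes that use NADPH or NADH to interconvert carbonyl and alcohol groups on steroids, prostaglandins and other small molecules. Their RNA was compared between the sebaceous gland (SG), the hair follicle (HF) and the interfollicular epidermis (IFE) of mouse tail skin. The members were the 8 numbered genes whose symbol begins with Akr1c. Akr1cl, whose symbol begins likewise, was not on the list and had no probe set. Of the 8 on the list (Akr1c6, Akr1c12, Akr1c13, Akr1c14, Akr1c18, Akr1c19, Akr1c20 and Akr1c21), 7 had a value, from 32 probe sets, among 14507 genes measured in all. Akr1c6, a liver enzyme that makes testosterone from androstenedione, had no probe set under its own symbol and was not analysed here. The members of the list were chosen by symbol, but the family itself was selected on its measured SG levels on these same arrays, so its values in all 3 comparisons are given as a description, with no p-value, and counts of members past a threshold are part of that description and no test.

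The samples were hand-dissected SG, HF and IFE from the tail epidermis of adult female mice, all wild type on a C57BL6/CBA background, and matched for age. Pieces of one compartment were pooled into each sample, and 3 biological replicates per compartment gave 9 exon arrays. By the labels the groups differed in compartment and none was treated. The labels give no exact age and do not say whether the 3 compartments of a replicate came from the same mice.

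Enzymes of this family set how much active steroid or prostaglandin a cell sees, by reducing or oxidising the hormone at the place where it acts. Akr1c18 inactivates progesterone, Akr1c14 reduces dihydrosteroids such as dihydroprogesterone, and Akr1c21 makes the alpha-hydroxy forms of androgens, epitestosterone among them. Sebocytes, the lipid-filled cells of the SG, respond to androgens and carry out several steroid conversions themselves.

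The array name in the description gave another compartment than the title on 9 of 9 arrays, so the titles were checked against markers. Each list value is the mean log2 over its genes, each gene centred on 0. For 14 of 14 sebocyte genes the SG arrays lay at 1.46 to 1.85, HF at -0.33 to 0.21 and IFE at -1.81 to -1.37. HF arrays were the highest for a list of the hair shaft and inner root sheath, with 12 of 16 genes measured (2.25 to 2.90), and IFE arrays for 9 of 12 suprabasal genes (0.54 to 0.84), so the groups follow the titles. SG replicate 3 stood apart on the hair shaft list, at 0.96 against -1.63 and -1.37 on the other SG arrays. HF replicate 2 had the highest sebocyte value of the HF arrays, 0.21 against -0.33 and -0.26. It was also the highest HF array for the suprabasal list, 0.01 against -0.41 and -0.36. For the hair shaft list it was the lowest HF array, 2.25 against 2.82 and 2.90. Langerhans and T cell genes (9 of 10) lay at 0.24 to 0.42 on SG, -0.42 to -0.17 on HF and -0.18 to 0.10 on IFE. Melanocyte genes (7 of 8) lay at -0.28 to 0.75, -0.01 to 0.15 and -0.54 to -0.01, and fibroblast and endothelial genes (9 of 10) at -0.07 to 0.31, 0.01 to 0.06 and -0.25 to -0.09. Genes of the resting follicle (12 of 14) lay at 0.29 to 0.53, 0.39 to 0.57 and -1.0 to -0.87. The part of these lists in the results was not tested. In such bulk samples, fewer cells of a type and less RNA per cell cannot be told apart.

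In the values that follow, a level is the log2 of the deposited intensity, as the median over the probe sets of a gene, and a difference is between means of 3 arrays with the SE of one limma fit to all 9. Levels are compared within a gene only, since different genes are read by different probes. A gene counted as changed at a Benjamini-Hochberg adjusted p under 0.05 over all genes together with an absolute log2 difference of at least 1.

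Akr1c21, the gene of the alpha-hydroxysteroid dehydrogenase, spanned the widest range of the family. Its log2 levels were 9.03, 9.19 and 9.13 on the SG arrays, 4.96, 7.12 and 5.82 on the HF arrays, and 3.61, 4.18 and 4.56 on the IFE arrays. No pair of compartments overlapped: every SG array was above every HF array, and every HF array above every IFE array, the latter a pattern of 13.5% of all genes. The SG arrays lay close together (mean 9.11 ± 0.08, SD, n = 3), whereas the HF arrays were spread (5.97 ± 1.09, SD, n = 3). SG exceeded IFE by 5.0 ± 0.42 (SE), and HF by 3.15 ± 0.42 (SE). The IFE mean of 4.12 was low and its signal over background is unknown, so the size of the differences from IFE is uncertain. HF exceeded IFE by 1.85 ± 0.42 (SE). HF replicate 2, the HF array with the highest sebocyte and suprabasal values, was also the highest for Akr1c21. Without it the HF minus IFE difference was 1.27.

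The progesterone-inactivating Akr1c18 was higher on the SG arrays than on those of either other compartment. Its log2 levels were 9.54, 9.79 and 9.35 on SG, 7.15, 8.82 and 7.57 on HF, and 8.36, 8.39 and 8.20 on IFE. The SG arrays were above all others, and HF and IFE overlapped, with HF replicates 1 and 3 below every IFE array and HF replicate 2 above them. SG exceeded IFE by 1.25 ± 0.34 (SE), or 2.38-fold, and HF by 1.72 ± 0.34 (SE), or 3.29-fold. HF minus IFE was -0.47 ± 0.34 (SE), and -0.96 without HF replicate 2.

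Akr1c13 and Akr1c12 are close copies of each other, read here by 3 and 2 probe sets. Akr1c13 stood at 9.37, 10.47 and 9.34 on SG, 6.43, 7.92 and 6.65 on HF, and 6.07, 8.09 and 7.80 on IFE. Akr1c12 stood at 7.60, 8.42 and 8.01 on SG, 6.97, 6.91 and 6.96 on HF, and 7.20, 6.91 and 7.13 on IFE. For both genes the SG arrays lay above all others while HF and IFE overlapped, and both peaked on SG replicate 2. Akr1c13 was higher in SG than in IFE by 2.41 ± 0.52 (SE), and than in HF by 2.73 ± 0.52 (SE). IFE replicate 1 was the lowest IFE array for Akr1c13, and without it the SG minus IFE difference was 1.78. The differences of Akr1c12 were smaller, at 0.93 ± 0.21 (SE) against IFE and 1.06 ± 0.21 (SE) against HF. How the signal divides between such copies is uncertain, since probes for one can bind RNA of the other.

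Akr1c19, whose substrates are less well known, gave 6.47, 7.79 and 7.03 on SG, 5.39, 6.11 and 3.96 on HF, and 4.29, 4.83 and 4.56 on IFE. SG was again above both others without overlap, by 2.54 ± 0.46 (SE) against IFE and 1.94 ± 0.46 (SE) against HF. The HF arrays ran from below the lowest to above the highest IFE array, with a difference of 0.60 ± 0.46 (SE), or 0.12 without HF replicate 2.

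Akr1c14, the dihydrosteroid reductase, was read by 1 probe set, at 5.57, 5.28 and 6.23 on SG, 5.19, 4.81 and 5.04 on HF, and 4.85, 4.54 and 4.84 on IFE. Its SG arrays were above the rest, by 0.95 against IFE and 0.68 against HF (SE 0.24 for both), with the highest value on SG replicate 3. Akr1c20 stood at 4.46, 4.54 and 5.18 on SG, 5.06, 4.64 and 4.70 on HF, and 4.60, 5.20 and 5.21 on IFE. It overlapped in all 3 comparisons, and its SG minus IFE difference was -0.27 ± 0.24 (SE). In all, 6 of the 7 measured genes, Akr1c20 being the exception, had every SG array above every IFE and every HF array. Of all genes, 13.2% had every SG array above every IFE array and 12.1% above every HF array, each comparison taken alone. The share with both at once was not counted. Every SG array was below every IFE array for 21.7% of all genes and below HF for 17.2%, and 19.3% had HF below IFE.

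**Figure D1:**
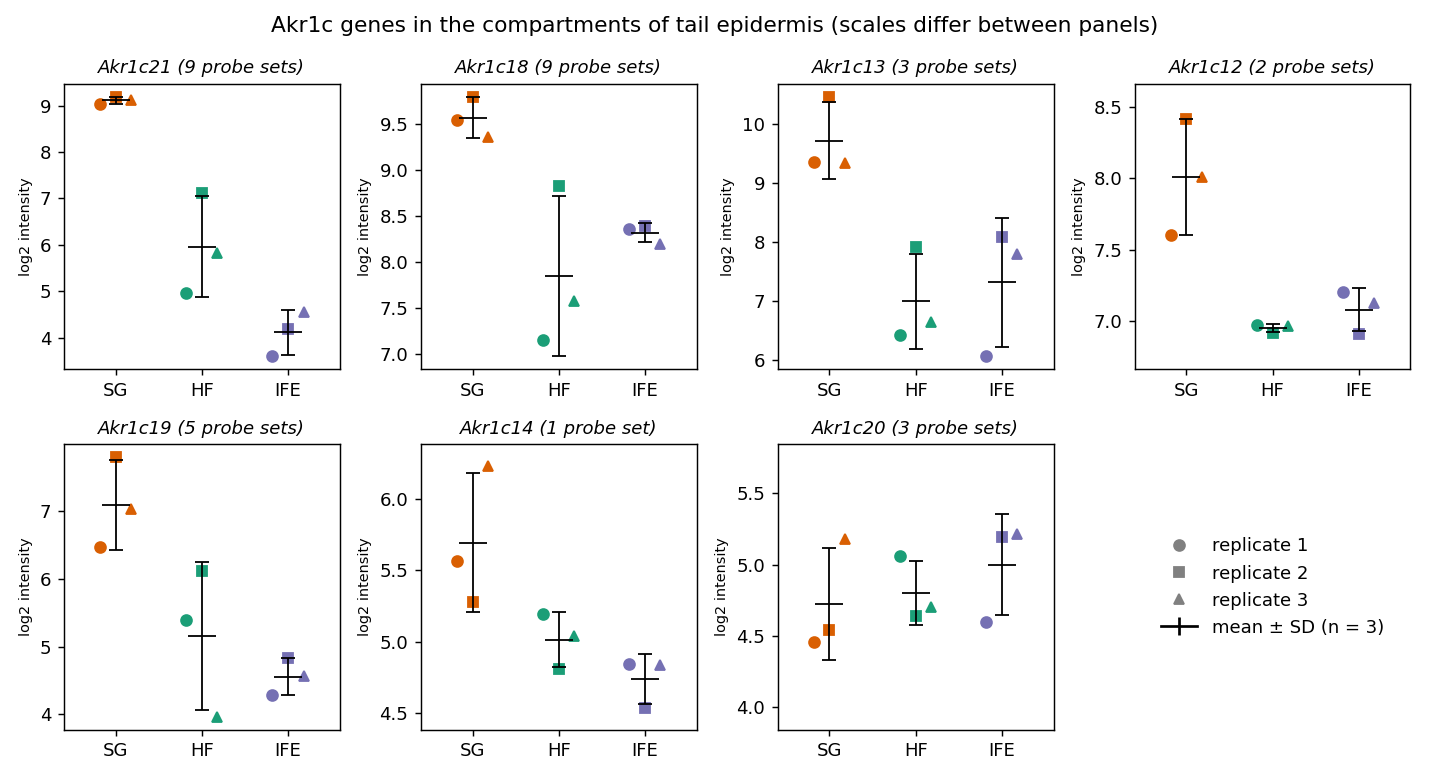
Log2 intensity of each measured Akr1c gene on the 9 arrays, by compartment, with 1 symbol per replicate and bars for the mean and SD (n = 3). The scales differ between panels. SG lies above HF and IFE in all panels but that of Akr1c20, and HF replicate 2 is the highest HF array for Akr1c21, Akr1c18, Akr1c13 and Akr1c19.

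As a description, 4 of the 7 genes were past the threshold in SG against IFE (Akr1c13, Akr1c18, Akr1c19 and Akr1c21), all of them higher, where 2.54% of all genes were higher and 9.49% changed. Across all genes 368 were higher and 1009 lower in SG than in IFE, a split that became 482 and 564 after quantile normalization. Akr1c21 was the single member past it in HF against IFE, where 2.96% were higher. In SG against HF, 5 were past it (Akr1c12, Akr1c13, Akr1c18, Akr1c19 and Akr1c21), where 1.81% were higher. The shares of all genes lower in the 3 comparisons were 6.96%, 3.36% and 3.3%, and 6.31% changed in HF against IFE and 5.11% in SG against HF. The median difference of the 7 genes was 1.25 for SG minus IFE, -0.13 for HF minus IFE and 1.72 for SG minus HF, beside -0.06, -0.07 and -0.02 for all genes. As the genes were chosen for their SG levels, nothing is read from these shares. The SG and IFE call of Akr1c18 was absent without SG replicate 2, IFE replicate 2 or IFE replicate 3. In SG against HF, those of Akr1c12 and Akr1c19 were absent without SG replicate 2, and that of Akr1c19 also without HF replicate 3.

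**Figure D2:**
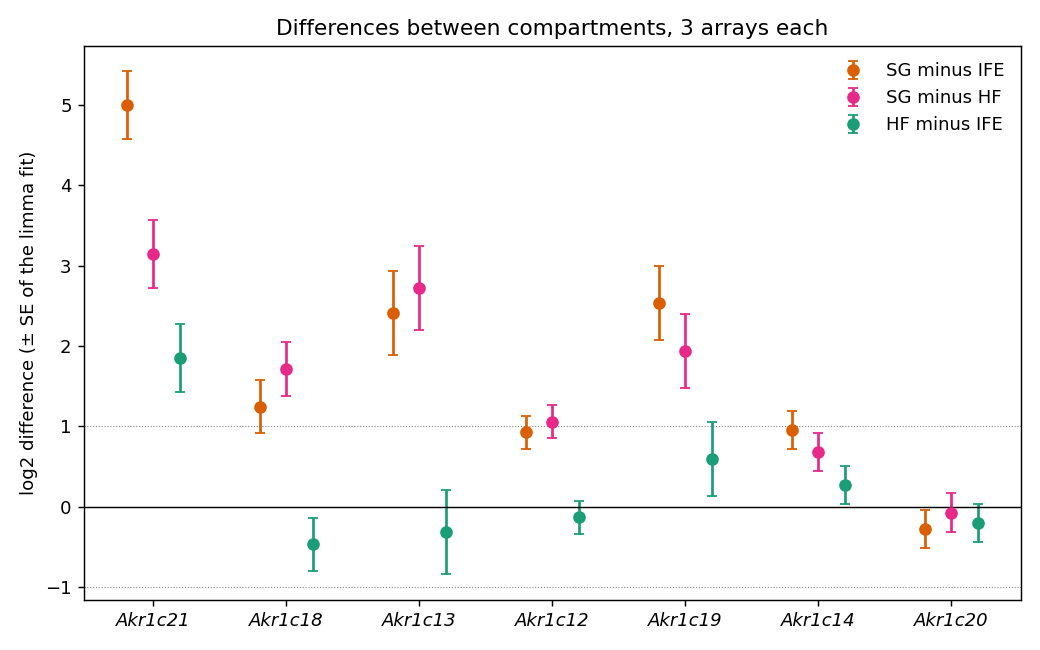
Log2 difference of each measured Akr1c gene for SG minus IFE, SG minus HF and HF minus IFE, with the SE of the limma fit (3 arrays per compartment). Akr1c21 has the largest difference of the family in each of the 3 comparisons, 5.0, 3.15 and 1.85.

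The probe sets of a gene, which read different stretches of its transcript, mostly ran the same way. Over the 32 probe sets, 29 had all SG arrays above all IFE arrays and 1 had them below, beside 10.3% above and 25.2% below among all probe sets. Against HF, SG was above in 27 and below in 0, beside 9.91% and 17.9%. HF was above IFE in 9 and below it in 4, beside 11.7% and 21%. Probe sets of one gene share its RNA and are no replicates of a compartment.

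Akr1c21 was above IFE in SG at 9 of 9 probe sets, by 1.73 to 7.42, and above HF at 9 of 9, by 1.26 to 3.69. HF was above IFE without overlap at 7 of 9. The probe set with the widest range gave 12.02, 12.47 and 12.22 on SG, 7.26, 9.73 and 8.84 on HF, and 4.20, 4.92 and 5.34 on IFE. The size of the Akr1c21 difference thus varied with the stretch read, while SG was on top at each.

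Akr1c18 was above IFE at 9 of 9 probe sets (1.06 to 2.18) and above HF at 9 of 9 (1.72 to 3.26). Its HF minus IFE difference was negative at 8 of 9, from -1.26 to 0.15, and 3 had HF below IFE without overlap. Akr1c19 was above IFE at 5 of 5 (1.09 to 3.92) and above HF without overlap at 4 of 5. The 3 Akr1c20 probe sets split: SG was above IFE at 1, below it at 1 and overlapping at 1.

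The copies Akr1c13 and Akr1c12 need this view most, as close copies. All 3 Akr1c13 probe sets were above both other compartments in SG, by 2.19 to 3.00 against IFE and 1.73 to 3.57 against HF. One Akr1c12 probe set read 6.48, 7.25 and 6.55 on SG, 4.83, 4.74 and 4.77 on HF, and 5.40, 5.24 and 5.48 on IFE, with SG on top, IFE next and HF lowest, without overlap. The other read 8.73, 9.58 and 9.46 on SG, 9.11, 9.09 and 9.16 on HF, and 9.00, 8.57 and 8.77 on IFE. There SG overlapped both, while HF was above IFE without overlap. The Akr1c12 probe sets thus ordered HF and IFE in opposite ways, which the overlap in the gene value does not show. A probe set annotated to both genes, kept out of the gene values, read 11.18, 11.00 and 10.37 on SG, 7.51, 8.80 and 7.72 on HF, and 7.43, 8.25 and 8.55 on IFE. Its SG arrays were above all others while HF and IFE overlapped, as in the gene values of both Akr1c13 and Akr1c12. This pattern does not assign it to either gene.

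**Figure D3:**
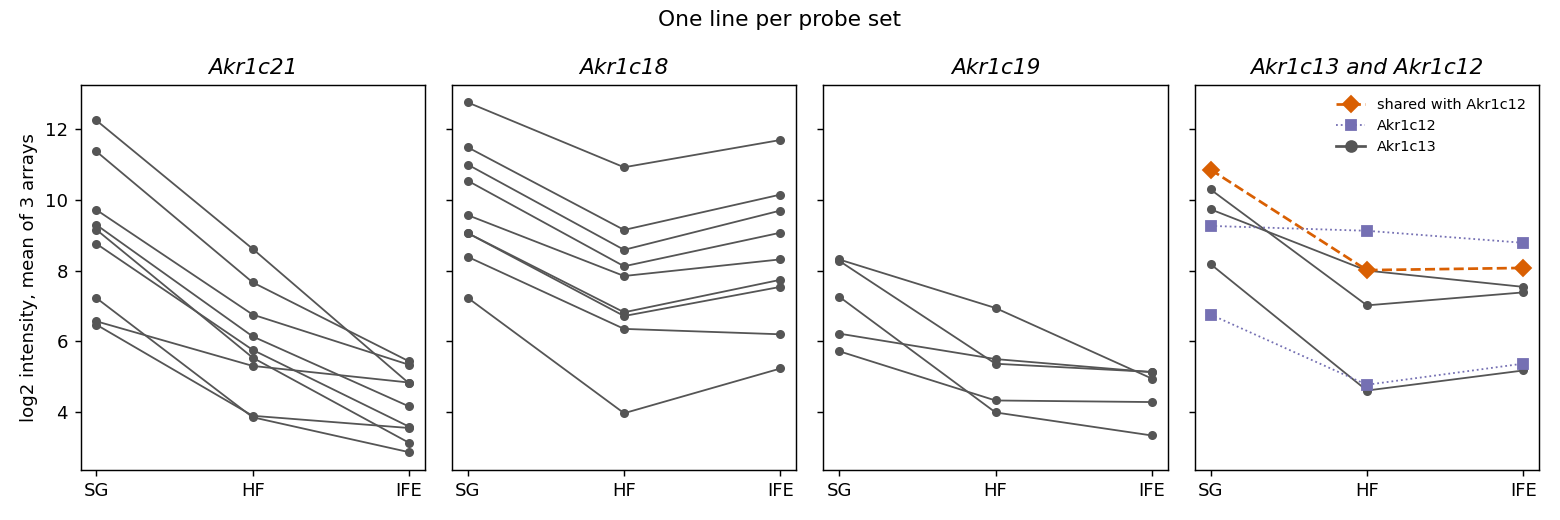
Mean log2 intensity over 3 arrays in SG, HF and IFE, with 1 line per probe set, for Akr1c21, Akr1c18, Akr1c19 and, in one panel, Akr1c13, Akr1c12 and the probe set annotated to both. Every line of Akr1c21 falls from SG to HF to IFE, while 8 of 9 lines of Akr1c18 are lowest in HF.

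The Akr1c genes lie side by side on chromosome 13, in the order Akr1c14, Akr1c18, Akr1c13, Akr1c19, Akr1c12, Akr1c6, Akr1c20 and Akr1c21 by the RefSeq gene table, with no other protein-coding gene between them. Akr1c20, which overlapped in all 3 comparisons, thus sits next to Akr1c21, with the widest differences. Sequence just before the start sites was aligned pair by pair, which does not measure how alike the transcripts are. RefSeq windows on GRCm38.p6 matched 7 of the 8 members, all but Akr1c20, and the 250 bases before the start were compared. Akr1c13 and Akr1c12 were 95.1% identical (235 of 247 aligned columns). Akr1c13 and Akr1c19 were 59.7% and Akr1c19 and Akr1c12 56.8% identical, and the other 18 of 21 pairs lay between 46.5% and 52.9%. The identity of unrelated windows was not measured, so the values of these 18 pairs are not read as likeness.

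The windows of the 5 genes past the threshold in SG against HF are printed 5′ to 3′ on the strand of the gene, to show the near-identity of the Akr1c13 and Akr1c12 windows and the part Akr1c19 shares with them. Capitals mark each CATTAG, on either strand, a repeat picked after the windows were seen. Akr1c13 lies at chr13:4190937-4191186, plus strand; Akr1c12 at chr13:4279400-4279649, minus strand; Akr1c19 at chr13:4233490-4233739, plus strand; Akr1c21 at chr13:4573825-4574074, plus strand; and Akr1c18 at chr13:4150647-4150896, minus strand.
Akr1c13: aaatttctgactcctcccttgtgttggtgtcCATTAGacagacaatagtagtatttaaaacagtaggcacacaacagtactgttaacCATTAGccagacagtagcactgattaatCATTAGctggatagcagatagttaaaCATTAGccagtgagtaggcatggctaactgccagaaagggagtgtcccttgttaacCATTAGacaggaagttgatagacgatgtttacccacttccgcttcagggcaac
Akr1c12: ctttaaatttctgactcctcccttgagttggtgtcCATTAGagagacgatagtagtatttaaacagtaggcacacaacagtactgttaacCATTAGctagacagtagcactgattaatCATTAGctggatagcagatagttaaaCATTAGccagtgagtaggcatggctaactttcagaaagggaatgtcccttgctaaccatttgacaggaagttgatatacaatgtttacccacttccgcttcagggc
Akr1c19: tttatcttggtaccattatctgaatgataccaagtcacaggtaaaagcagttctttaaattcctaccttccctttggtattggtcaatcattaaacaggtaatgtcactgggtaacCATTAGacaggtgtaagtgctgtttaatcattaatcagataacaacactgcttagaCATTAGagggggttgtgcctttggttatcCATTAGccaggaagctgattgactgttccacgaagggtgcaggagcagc
Akr1c21: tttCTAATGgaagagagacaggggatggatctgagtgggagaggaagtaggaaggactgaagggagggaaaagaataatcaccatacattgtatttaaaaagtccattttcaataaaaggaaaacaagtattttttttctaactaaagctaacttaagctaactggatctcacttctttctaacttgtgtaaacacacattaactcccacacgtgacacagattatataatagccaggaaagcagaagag
Akr1c18: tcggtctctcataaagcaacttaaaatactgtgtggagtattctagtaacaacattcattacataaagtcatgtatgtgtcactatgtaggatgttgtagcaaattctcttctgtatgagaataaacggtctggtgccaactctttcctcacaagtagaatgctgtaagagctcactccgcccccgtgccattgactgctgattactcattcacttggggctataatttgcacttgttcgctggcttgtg

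CATTAG, searched on both strands, occurred 5 times before Akr1c13, 4 times before Akr1c12 and 3 times before Akr1c19. It occurred once before Akr1c6 and once before Akr1c21, there on the opposite strand, and in neither Akr1c14 nor Akr1c18. Of 32851 RefSeq windows of that length, 6.36% held it and 0.304% held it at least 2 times. The other letters searched, again on both strands, were TATAAA (Akr1c6 alone, 12.4% of windows), CCAAT (Akr1c14, Akr1c19 and Akr1c6, 33.8%), the nuclear receptor half-site AGGTCA (no member, 14.0%), the androgen and glucocorticoid receptor half-site TGTTCT (no member, 16.1%) and the antioxidant response core TGACNNNGC (no member, 10.2%). A match, or its absence, describes the letters in this window alone.

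The genes on either side of the cluster were taken next. Of the 10 nearest protein-coding neighbours, 5 on each side, 8 had a value. In SG against IFE none rose and 4 fell, with a median difference of -0.64 (4 of the 8 had an unadjusted p under 0.05). Of all genes, 2.54% were higher and 6.96% lower in this comparison, with a median difference of -0.06. Calm5, a calmodulin-like gene of differentiating epidermis, had a SG minus IFE difference of -1.70 ± 0.31 (SE) (limma adjusted p = 0.00241). That of its relative Calm4 was -1.16 (limma adjusted p = 0.000771), that of the phosphofructokinase gene Pfkp -1.26 (limma adjusted p = 0.000309) and that of the transcription factor gene Klf6 -1.27 (limma adjusted p = 0.00194). After quantile normalization Calm4, Pfkp and Klf6 were under the size threshold, at -0.92, -0.85 and -0.86.

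Akr1e1, the next gene after Akr1c21 and itself an aldo-keto reductase, stood at 8.46, 9.36 and 9.34 on SG, 6.80, 7.48 and 7.22 on HF, and 8.54, 9.24 and 9.59 on IFE. SG and IFE overlapped and HF was below both, whereas Akr1c21 was lowest in IFE. HF minus IFE was -1.96 ± 0.31 (SE) (limma adjusted p = 0.00152) and SG exceeded HF by 1.88 ± 0.31 (SE) (limma adjusted p = 0.00295), while SG minus IFE was -0.07 (adjusted p = 0.896, limma). In HF against IFE the neighbours had 1 higher and 2 lower, where 2.96% of all genes were higher and 3.36% lower. Akr1e1 and Calm5 were lower (Calm5 at -2.23, limma adjusted p = 0.000601). The peptidase gene Pitrm1 was higher by 2.34 ± 0.55 (SE) (limma adjusted p = 0.0161), a call lost without HF replicate 1 (adjusted p = 0.05), HF replicate 3 (0.0646) or IFE replicate 2 (0.0508). SG replicate 3 read 10.62 for Pitrm1, against 7.87 and 8.02 on the other SG arrays, so it stood with the HF arrays.

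**Figure D4:**
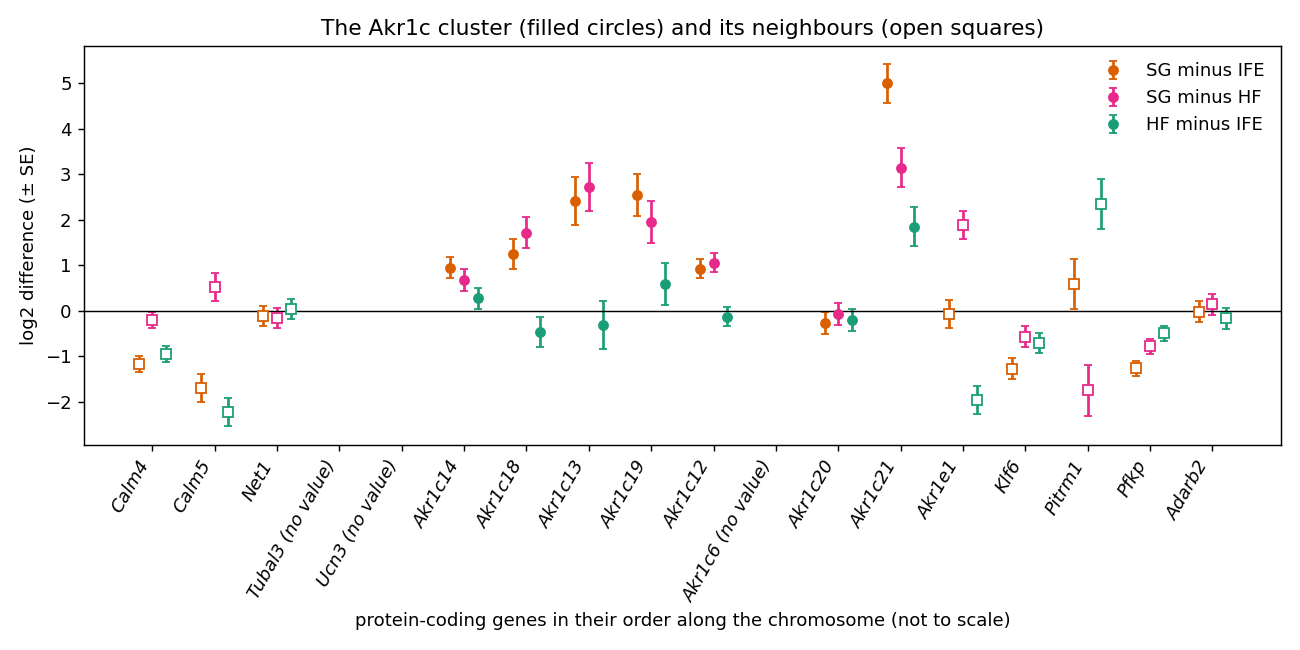
Log2 differences (± SE of the limma fit, 3 arrays per compartment) for the Akr1c genes, as filled circles, and their protein-coding neighbours, as open squares, in chromosome order and not to scale. SG minus IFE is above 0 for 6 of 7 measured Akr1c genes, while Calm4, Calm5, Klf6 and Pfkp fall below 0. The median of all genes for SG minus IFE was -0.06.

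The Akr1c genes were next set beside genes that act on the same substrates. Of 12 other aldo-keto reductases and related subunits, 8 were measured. In SG against IFE none passed the limma threshold, 3 had an unadjusted p under 0.05, and the median difference was 0.17. Akr1b8, a reductase of lipid aldehydes, stood at 7.51, 7.75 and 8.43 on SG, 6.07, 7.39 and 6.77 on HF, and 6.13, 6.91 and 7.46 on IFE. SG was above both without overlap, by 1.06 ± 0.38 (SE) against IFE (limma adjusted p = 0.0671) and 1.15 ± 0.38 (SE) against HF (limma adjusted p = 0.0857). Akr1b8 was singled out after its values were seen.

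Hydroxysteroid dehydrogenases and 5-alpha reductases, which with the Akr1c enzymes set the local steroid pool, had 23 of 26 members measured. In SG against IFE 4 rose and 2 fell, with a median of 0.31. Hsd3b6, which makes progesterone and androstenedione from their precursors, stood at 10.48, 10.02 and 9.85 on SG, 7.10, 8.19 and 6.80 on HF, and 5.54, 5.59 and 5.66 on IFE. The compartments did not overlap and had the order seen for Akr1c21, again with HF replicate 2 the highest HF array. Hsd3b6 was higher in SG than in IFE by 4.52 ± 0.31 (SE) (limma adjusted p = 4.36e-06), in SG than in HF by 2.76 ± 0.31 (SE) (limma adjusted p = 0.000416), and in HF than in IFE by 1.76 ± 0.31 (SE) (limma adjusted p = 0.0027).

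Hsd17b2, which oxidises testosterone and estradiol to weaker steroids, stood at 7.94, 8.01 and 7.34 on SG, 6.41, 6.96 and 7.06 on HF, and 5.51, 5.91 and 6.32 on IFE. SG was above HF and HF above IFE without overlap, and SG exceeded IFE by 1.85 ± 0.26 (SE) (limma adjusted p = 0.000502). Dhrs9, a retinol and steroid dehydrogenase, went the other way, at 5.88, 5.78 and 6.30 on SG and 8.43, 8.32 and 8.06 on IFE, with a difference of -2.28 ± 0.24 (SE) (limma adjusted p = 8.33e-05). Of the rest, Hsd17b14 differed by -1.28 (limma adjusted p = 0.00643). Hsd17b4 and Hsd17b10, enzymes of fatty acid oxidation as much as of steroids, were 1.07 and 1.12 higher (limma adjusted p = 0.0194 and 0.0176). Hsd17b4 was not past the threshold when SG replicate 1 (limma adjusted p = 0.0705), SG replicate 2 (0.0788) or IFE replicate 1 (0.0563) was left out, nor Hsd17b10 without SG replicate 2 (limma adjusted p = 0.0622) or IFE replicate 1 (a difference of 0.75).

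In HF against IFE 1 of these 23 genes rose (Hsd3b6) and 2 fell (median -0.01). Dhrs9 was at -1.82 (limma adjusted p = 0.000449). Srd5a1, which makes dihydrotestosterone from testosterone, was at -1.15 ± 0.23 (SE) (limma adjusted p = 0.00638), with 7.03, 7.79 and 7.30 on HF below 8.34, 8.46 and 8.75 on IFE. Without HF replicate 1 that difference was -0.98, under the size threshold. In SG against HF 4 rose and 1 fell (median 0.48): Hsd3b6, Hsd17b12, Hsd17b4 and Hsd17b10 were higher, and Hsd17b14 was lower (-1.47, limma adjusted p = 0.00597). Hsd17b12, of fatty acid elongation, was 1.21 higher (limma adjusted p = 0.0101), a call lost without HF replicate 3 (adjusted p = 0.0525). Hsd17b4 was 1.33 higher (limma adjusted p = 0.0116), a call lost without SG replicate 2, HF replicate 1 or HF replicate 3. Hsd17b10 was 1.12 higher (limma adjusted p = 0.0315), lost without any one of the SG replicates 2 and 3 and the HF replicates 1 to 3. The steroid receptor genes, 4 of 6 measured, had none past the limma threshold in any comparison, and 0, 1 and 0 with an unadjusted p under 0.05 in SG against IFE, HF against IFE and SG against HF.

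Prostaglandins are the other main substrates of the family. Of 25 genes of their synthesis, breakdown and reception, 23 were measured, and in SG against IFE none rose and 3 fell (median 0.08). Hpgd, the enzyme that inactivates prostaglandins, stood at 8.45, 7.86 and 7.53 on SG, 7.98, 8.54 and 7.95 on HF, and 9.92, 10.22 and 10.17 on IFE. IFE was above both others without overlap, with differences of -2.15 ± 0.25 (SE) for SG (limma adjusted p = 0.000137) and -1.94 ± 0.25 (SE) for HF (limma adjusted p = 0.000316). Ptgs1, the constitutive cyclooxygenase, was lower than in IFE in both SG (-1.61, limma adjusted p = 0.00424) and HF (-1.67, limma adjusted p = 0.0052). The prostaglandin E receptor gene Ptger3 was lower in SG (-1.80, limma adjusted p = 0.000776). In HF against IFE 0 rose and 2 fell (median -0.23). In SG against HF none passed the limma threshold, and 5 had an unadjusted p under 0.05.

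No gene of NADPH supply was called lower in any comparison, while the detoxification genes that follow went both ways. Of 9 measured of 12 genes of NADPH supply, 2 rose and none fell in SG against IFE (4 at an unadjusted p under 0.05; median 0.26). Idh1, the cytosolic isocitrate dehydrogenase that makes NADPH, stood at 11.36, 11.10 and 10.37 on SG, 9.73, 9.86 and 9.71 on HF, and 7.86, 8.80 and 8.76 on IFE. The compartments did not overlap, and SG exceeded IFE by 2.47 ± 0.29 (SE) (limma adjusted p = 0.000153) and HF exceeded IFE by 1.29 ± 0.29 (SE) (limma adjusted p = 0.0119; 0.98 without IFE replicate 1). Its 1.17 ± 0.29 (SE) higher level in SG than in HF (limma adjusted p = 0.0238) was not past the threshold without any one of SG replicates 1 and 2 or the HF replicates. Me2, a mitochondrial malic enzyme that mainly uses NAD, was 1.48 higher in SG than in IFE (limma adjusted p = 0.00141) and 2.23 higher in HF than in IFE (limma adjusted p = 0.00014). For this list HF against IFE had 2 higher and none lower (4 at an unadjusted p under 0.05), and SG against HF 1 and none (2 at an unadjusted p under 0.05).

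NRF2, encoded by Nfe2l2, drives reductases and glutathione enzymes, and of 21 listed genes 17 were measured. In SG against IFE 2 rose and 1 fell (median 0.20). Gsta3, a glutathione transferase, stood at 9.60, 9.32 and 9.13 on SG, 6.56, 7.64 and 6.56 on HF, and 5.28, 7.34 and 6.93 on IFE. SG was above both others and HF overlapped IFE, with a SG minus IFE difference of 2.83 ± 0.45 (SE) (limma adjusted p = 0.00106) and a SG minus HF difference of 2.43 ± 0.45 (SE) (limma adjusted p = 0.00573). Gstp1 was 1.25 higher (limma adjusted p = 0.0134; 0.0584 without IFE replicate 2), and Nfe2l2 itself was lower in SG than in IFE (-1.36, limma adjusted p = 0.000594; -0.95 after quantile normalization). In HF against IFE Txnrd1, thioredoxin reductase, was 1.28 higher (limma adjusted p = 0.00596) and Gsta4 lower (-1.85, limma adjusted p = 0.00294). In SG against HF 2 rose, Gsta3 and Gsta4 (1.97, limma adjusted p = 0.00295), and 2 fell, the cystine carrier Slc7a11 (-1.45, limma adjusted p = 0.000324) and Txnrd1 (-1.27, limma adjusted p = 0.00822).

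Aldehyde dehydrogenases, which oxidise aldehydes that aldo-keto reductases reduce, had 18 of 21 members measured, with 2 higher and 1 lower in SG against IFE (median 0.11). Aldh1a7 stood at 9.14, 8.76 and 7.63 on SG, 6.09, 6.56 and 6.12 on HF, and 6.02, 5.25 and 5.48 on IFE. SG was above both others, by 2.93 ± 0.34 (SE) against IFE (limma adjusted p = 0.000149) and 2.25 ± 0.34 (SE) against HF (limma adjusted p = 0.00188). Of the folate enzymes of this list, Aldh1l1 was 1.15 higher in SG than in IFE (limma adjusted p = 0.00264; 0.92 without IFE replicate 1) and Aldh1l2 lower (-1.47, limma adjusted p = 0.00193). In HF against IFE, Aldh1a3, a retinoic acid-forming enzyme, was 1.56 higher (limma adjusted p = 0.00182) but 0.36 with the brightest probe set, and Aldh1l2 was lower (-1.18, limma adjusted p = 0.0105; 0.051 without IFE replicate 2 and 0.0528 without IFE replicate 3). In SG against HF Aldh1a7 was higher and Aldh1a3 lower (-1.12, limma adjusted p = 0.0161; lost without SG replicate 2 or HF replicate 2). The shares of listed genes called in each direction are read against the backgrounds given for the family.

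Several of these calls rested on how the data were handled. With the letter that ends each array name as a block, whose meaning the labels do not give, those of Hsd17b14, Hsd17b12, Hsd17b4, Hsd17b10, Gsta3, Gsta4, Txnrd1 and Idh1 were absent in SG against HF, as were those of Akr1c13 and Akr1c18. The same block ended those of Srd5a1, Ptgs1, Gsta4, Idh1 and Aldh1l2 in HF against IFE, and of Hsd17b4 and Calm4 in SG against IFE. HF replicate 1, SG replicate 1 and IFE replicate 3 each have a letter of their own. With this block they add nothing to the differences, so its losses also reflect fewer arrays. With the brightest probe set of each gene, Hsd17b14, Hsd17b4, Nfe2l2, Pfkp and Calm4 were not past the threshold in SG against IFE, nor Hsd3b6 and Aldh1a3 in HF against IFE, nor Aldh1a3, Akr1c12 and Akr1c19 in SG against HF. The mean of probe sets put Hsd17b14 (-0.82), Nfe2l2 (-0.80), Klf6 (-0.90) and Hsd17b10 (0.87) under the size threshold in SG against IFE. It did the same to Srd5a1 (-0.999) in HF against IFE and Hsd17b10 (0.98) in SG against HF. Array weights did so to Gstp1 (0.98) and Hsd17b10 (0.94) in SG against IFE, and quantile normalization to Srd5a1 in HF against IFE. Hsd3b6, Hpgd and Aldh1a7 in SG against IFE were past the threshold under every alternative that had the gene.

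The members were also set beside the sebocyte list, array by array. HF replicate 2 had the highest sebocyte value among the HF arrays, and also the highest suprabasal value. It was the highest HF array for Akr1c21, Akr1c18, Akr1c13 and Akr1c19 and the lowest for Akr1c12, Akr1c14 and Akr1c20. SG replicate 3, with the lowest sebocyte value among the SG arrays (1.46 against 1.84 and 1.85), was the lowest SG array for Akr1c18 and Akr1c13, the highest for Akr1c14 and Akr1c20, and in between for Akr1c21, Akr1c12 and Akr1c19. In the limma fit 13 of the 14 sebocyte genes were higher and 1 lower in SG than in IFE, 9 higher and 1 lower in HF than in IFE, and 12 higher in SG than in HF. The part of the sebocyte content of a dissection in the Akr1c levels was not tested. With SG replicate 3 and HF replicate 2 both left out, 4, 1 and 5 members were past the threshold in SG against IFE, HF against IFE and SG against HF, as many as with all arrays. These arrays were picked after the data were seen. Leaving them out sets SG and HF further apart on the sebocyte list, so these counts are no test of its part.

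**Figure D5:**
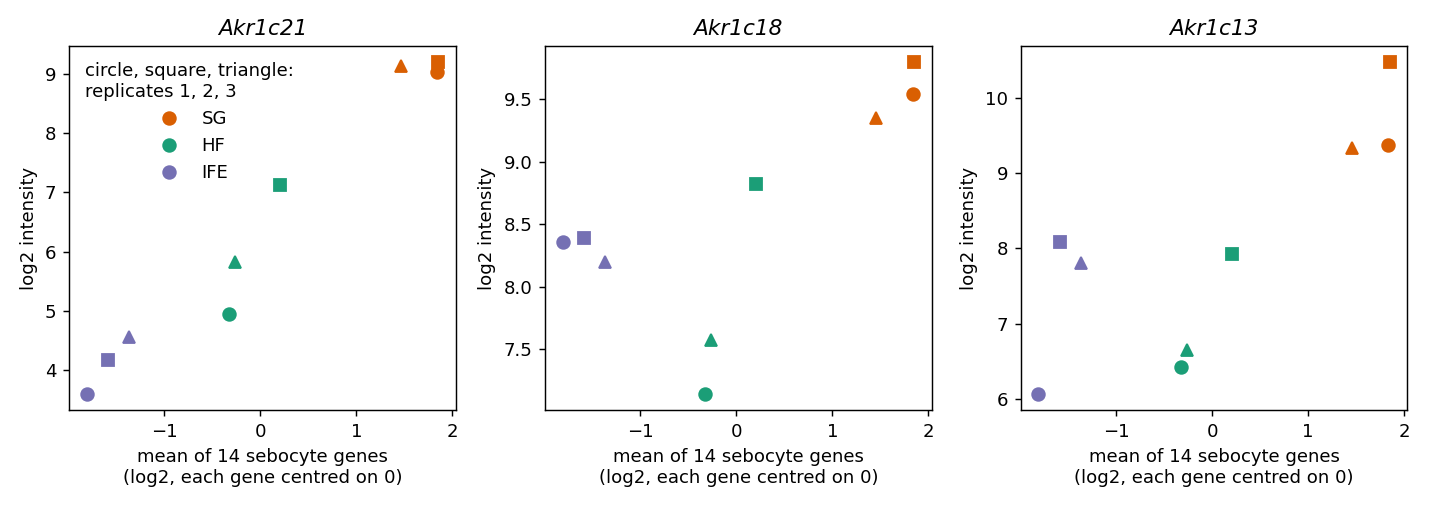
Log2 intensity of Akr1c21, Akr1c18 and Akr1c13 on each of the 9 arrays (vertical axis) against the mean of 14 sebocyte genes on the same array (horizontal axis, log2, each gene centred on 0), coloured by compartment with 1 symbol shape per replicate number. The IFE arrays lie lowest for Akr1c21, while for Akr1c18 HF replicates 1 and 3 lie below the IFE arrays and have higher sebocyte values than those.

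The 3 genes outside the family most alike to each member by Pearson r over the 9 arrays were sought among genes whose compartment means span at least 1 on the log2 scale. They are a description of arrays that share a compartment effect. For Akr1c21 they were Plin2, which coats lipid droplets (r = 0.994), Aspn (0.994) and the fatty acid hydroxylase gene Fa2h (0.9905). Plin2 and Fa2h are on the sebocyte list. For Akr1c18 they were the deacetylase gene Aadac (0.972), the ATP citrate lyase gene Acly (0.952) and the sterol synthesis gene Msmo1 (0.9499), each lowest in HF as Akr1c18 was. For Akr1c13 they were Glrx5 (0.984), the sterol synthesis gene Nsdhl (0.974) and Copz2 (0.9697). For Akr1c19 they were Rnf125 (0.944), Crygn (0.939) and the fatty acid desaturase gene Scd1 (0.9325), also a sebocyte list gene. For Akr1c12 they were Cyb5b (0.916), Olfr970 (0.9155) and Cdr2 (0.911). The compartment means of Akr1c14 spanned 0.95 and those of Akr1c20 0.27, under the span asked for.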

How the data were processed

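Exon arrays measured RNA from 9 pooled dissections, 3 each of SG, HF and IFE, grouped by title. The submitters' processing notes name RMA, Affymetrix Power Tools and mm9, without roles or versions. The authors deposited an intensity per probe set, on a linear scale from 2.5 to 30815, with array medians of 176 to 234, so a bright array can raise many genes together. Detection calls were not used, and dim genes may show smaller differences than they have.

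The log2 was taken with no further normalization. Of 154736 probe sets, the 146964 with 1 symbol in the platform annotation (1060 had several, 6712 none) were summarised by their median into 14507 genes. Symbols of 1754 genes were updated through a RefSeq table, which held 14472. One limma model (version 3.58.1, R 4.3.3) with a mean per compartment took in all arrays, with Benjamini-Hochberg adjustment over all genes, and was tested on simulated data. P-values measure the spread between dissections labelled as biological replicates, and their number limits the precision. Alternatives covered scaling, dim genes, the probe set summary, blocks, variance model, weights, arrays fitted, threshold and leaving out each array. Deviations of samples sharing a replicate number were at most weakly correlated (r of -0.02 to 0.23 over 9 pairs, 2 above 0.1), so the main fit had no block. Pairs of unlike replicate number were not examined for comparison.

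Members and gene lists were chosen with earlier results of these data known. Named were every member, the neighbours, up to 4 called genes of the smallest p per list and comparison with up to 2 of the opposite direction, and the 3 genes most alike to each member. Hsd17b10 and Akr1b8 fall outside that rule.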

Additional observations from a re-analysis of the deposited data

How the results depend on the processing

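Of 384 differences of members under alternatives, 372 moved by less than 1 SD and 12 moved further. Part of the 372 could not move. The replicate block, the fit of only the groups compared, and leaving out an array of the third compartment return the same difference by design. In 11 of the 384 the sign changed, none of a difference past the threshold. That of Akr1c20 changed in each comparison. It went to 0.05 for SG minus IFE with the mean of probe sets, and up to 0.04 for HF minus IFE and 0.19 for SG minus HF. HF minus IFE of Akr1c12 (0.34) and Akr1c13 (0.46) changed sign with the brightest probe set. That of Akr1c13 also did so with the letter block (0.21) and without IFE replicate 2 (0.07). Akr1c21 stayed between 4.75 and 7.42 for SG minus IFE and between 2.64 and 3.73 for SG minus HF. With the brightest probe set, Akr1c12 was at 0.48 for SG minus IFE and 0.14 for SG minus HF, and HF minus IFE was 3.79 for Akr1c21 and 1.99 for Akr1c19. Of 48 called differences of named other genes, 22 were past the threshold under every alternative that had the gene, and 26 were not under at least one; none reversed.

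Leaving out the dimmer 50% of genes removed 5 members from the fit (Akr1c12, Akr1c14, Akr1c19, Akr1c20 and Akr1c21) and left 2, 0 and 2 members past the threshold in SG against IFE, HF against IFE and SG against HF, with 11 list genes in SG against IFE (17 before) and 597 genes in HF against IFE (916 before). With the brightest probe set there were 2 members in HF against IFE (Akr1c19 and Akr1c21), 3 in SG against HF, and 20 list genes in SG against HF (13 before), as there were 20 after quantile normalization. When the letter that ends each array name served as a block, SG against HF had 392 genes (741 before), 3 members and 5 list genes. Array weights gave 19 list genes in HF against IFE (12 before). A size threshold of 0.5 gave 3154, 1750 and 1373 genes in the 3 comparisons, and 27 list genes in SG against IFE. In the letter block, HF replicate 1, SG replicate 1 and IFE replicate 3 each have a letter of their own. Those arrays then add nothing to the differences, and fewer arrays carry each comparison. What else lay behind the changes under the letter block, and the cause of those under the weights, was not tested.

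Leaving out 1 array at a time gave 3 to 6 members, 1146 to 1752 genes and 16 to 19 list genes in SG against IFE, 1 member, 763 to 1146 genes and 12 to 16 list genes in HF against IFE, and 3 to 5 members, 535 to 994 genes and 10 to 16 list genes in SG against HF. The 3 members in SG against HF came without SG replicate 2. With the replicate number as a block, 1398, 944 and 781 genes, 4, 1 and 5 members and 18, 12 and 17 list genes were past the threshold. SG replicate 3 and HF replicate 2 were left out together after the data were seen. The signal over background of the deposited values is unknown, which limits what can be read from low values: those of Akr1c21 and Akr1c19 in IFE, whose means are 4.12 and 4.56, and those of Akr1c14 and Akr1c20.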
